A study of Mus musculus with 4 samples.

Results

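The genes examined here were 10 mouse genes of the calcium/calmodulin-dependent kinases, namely the subunits of CaM kinase II (Camk2a, Camk2b, Camk2d and Camk2g), its inhibitor Camk2n1, the kinases Camk4, Camk1 and Camk1d, their activating kinase Camkk2, and the pseudokinase Camkv. An Elavl peak was counted for a gene when it touched the annotated span of that gene on the strand of most of its peaks. This gave 181 of the 97775 peaks of the cortex list and 6 of the 7335 peaks of the N2A list. Cortex peaks were found in 8 of the 10 genes and N2A peaks in 3, and no peak lay on the opposite strand of any of these spans.

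When calcium enters a neuron it binds calmodulin, which switches on kinases that are otherwise held inactive by their own regulatory segment. CaM kinase II assembles its subunits into large rings, is concentrated at excitatory synapses and is known for its part in synaptic plasticity, whereas Camkk2 phosphorylates and activates the kinases of the Camk1 and Camk4 branch. Elavl proteins bind U-rich and AU-rich RNA and are known to act on splicing, stability and translation of the transcripts they bind.

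Elavl binding was mapped by HITS-CLIP, in which ultraviolet light crosslinks a protein to RNA and the fragments that stay bound after partial RNase digestion are sequenced. The 3 cortex samples came from mouse brain and had a degenerate linker of 25 nt, and their common list carries the words for 2 months in its name, which the labels do not explain. The 1 other sample was N2A, a mouse neuroblastoma cell line, with a linker of 7 nt, so tissue and linker cannot be told apart. The sources used here do not give strain, sex, age, any treatment or which Elavl protein the antibody recognised.

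The cortex and N2A data each came as 1 list, whose peaks were 50 to 51 nt wide. Every p printed below is the authors' value for that peak, was not computed between the groups, and serves only to order peaks within its own list. The lists hold no value per sample, so neither a spread between samples nor a test between the lists could be had, and depth is unknown. A gene at 0 has no peak at a deposited p of up to 0.1, which does not show that it was not bound. Expression was not measured, and fewer cells of a type, less RNA per cell and less binding per RNA cannot be told apart. All 4 markers of excitatory neurons had cortex peaks, as did 3 of 4 interneuron, 3 of 4 astrocyte, 4 of 4 oligodendrocyte and 1 of 4 microglia markers, with Sst, Gfap, Cx3cr1, Csf1r and C1qa at 0. In N2A the markers of these 5 cell types were at 0, and 4 of 6 sympathoadrenal and neuroblastoma markers had peaks, with Th and Dbh at 0. Of these 6, Lin28b and Mycn also had cortex peaks, so 2 of the 4 did not separate the lists.

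Most of the genes carried cortex peaks, and their number ranged from 0 to 90 per gene. Camk4 had 90 cortex peaks and 0 in N2A. Camk2d had 31 and 3, Camk1d 23 and 2, Camk2a 11 and 0, Camk2b 10 and 0, Camkk2 10 and 0, Camk2n1 5 and 1, and Camkv 1 and 0, in the same order of lists. Camk2g, a CaM kinase II subunit, and Camk1 had 0 in both. Among all 21900 coding genes, 40.8% had a cortex peak, 14.4% an N2A peak and 13.1% both, with no allowance for span. Of coding genes within 20% of a member's span, 21.4% (for Camk2n1) to 86.7% (for Camk1d) had a cortex peak. An N2A peak was found in 7.59% (for Camk2n1) to 26.8% (for Camk2b) of such genes. Of coding genes with a cortex peak 32.2% also had an N2A peak, against 3 of 8 members. The median over genes with a peak was 10.5 cortex peaks in the members and 4 over all coding genes, and per 100 kb of span it was 14.4 and 12.3. The difference in numbers is therefore larger per gene than per length.

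The members were unequal in how many peaks they held for their length. Camk4 had 34.5 cortex peaks per 100 kb over its 261 kb, Camk2a 17.5 over 62.8 kb, Camkk2 16.4 over 61.1 kb, Camk2d 12.4 over 251 kb, Camk2b 10.3 over 96.7 kb and Camk1d 5.46 over 421 kb. Camk2n1 had 100.4 per 100 kb, with 5 peaks in a span of 4.98 kb. Of the coding genes whose span was within 20% of that of Camk4, 6 of 412 had more cortex peaks, and their median was 10.5. For Camk2n1, 7 of 1489 genes of like length had more, with a median of 0. Camk2d was exceeded by 95 of 433 genes of like length, whose median was 9. Camk1d, at 23 peaks, was exceeded by 115 of 241, whose median was 20, and so lay near the middle of all genes of its length. These 4 medians include genes with no peak. Over genes of like length with a peak, the medians were 17 for Camk4, 1 for Camk2n1, 16 for Camk2d and 29 for Camk1d. The gene Camk2g spans 59.3 kb, and 64.3% of the coding genes of that length had a cortex peak.

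**Figure D1:**
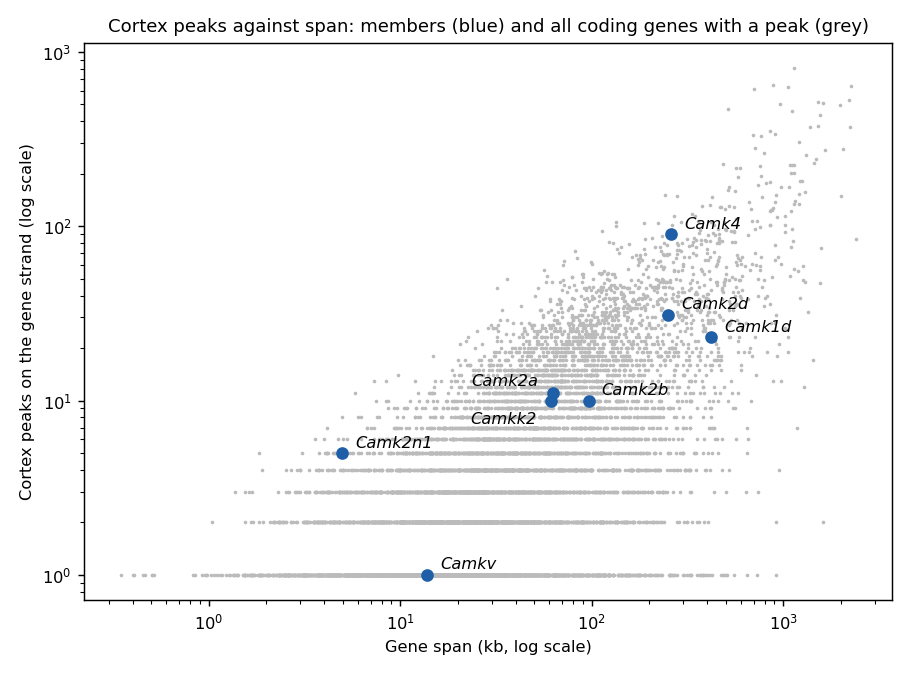
Number of cortex peaks on the gene strand (vertical, log scale) against gene span in kb (horizontal, log scale), 1 point per coding gene with a cortex peak, with the 8 members that had one in blue. Camk4 with 90 peaks and Camk2n1 with 5 lie near the upper edge of the grey points at their length, and Camk1d with 23 lies among them.

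The CaM kinase II subunits are closely related proteins from separate genes, and those with peaks held 52 cortex peaks (28.7% of the 181) and 3 N2A peaks. Camk2a (gene 12322), the alpha subunit, abundant in forebrain excitatory neurons, spans chr18:60925307-60988152 (GRCm38) and had its peaks on the plus strand. Of its 11 peaks, 5 lay in the last 5 kb and 6 between 15.4 and 36.6 kb from the gene end. The strongest lay at 60985569 to 60985620, 2.56 kb from the gene end, with a deposited p of 1.19e-279, at rank 101 of the 97775 cortex peaks. The next were at 60986349 to 60986400 (p of 3.54e-88), 60987846 to 60987896 (p of 1.15e-86) and 60986530 to 60986581 (p of 4.76e-63), so that the 4 strongest sites of Camk2a all lay within 2.56 kb of its end. Further inside the gene the strongest was at 60972702 to 60972752, 15.4 kb from the end, with a p of 2.79e-20. The other 6 peaks had p-values from 2.47e-05 to 0.0713.

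Camk2b (gene 12323) encodes the beta subunit, which binds actin, and spans chr11:5969629-6066357 on the minus strand. It had 10 peaks, with 3 in the last 5 kb and 7 between 47.9 and 82.7 kb from the end, and none in the 45.8 kb between these groups. Its strongest peak, at 5969663 to 5969713, was centred 0.059 kb from the gene end (p of 2.71e-111, rank 543). The other 2 near the end were at 5971648 to 5971698 (p of 2.45e-09) and 5971067 to 5971117 (p of 0.0130). Of the inner group the strongest were those at 6046571 to 6046622 (p of 2.07e-21) and 6052313 to 6052363 (p of 4.17e-12), which were 19.8 and 14.0 kb from the 5′ edge of the span. Camk2b thus had sites of low p at both sides of the gene, whereas the first peak of Camk2a lay 26.3 kb from its 5′ edge.

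Camk2d (gene 108058), the delta subunit, made in many tissues including heart, spans chr3:126595487-126846326 on the plus strand. It had 31 cortex peaks, the most of the CaM kinase II genes, but only 3 of them lay in the last 5 kb. Those 3 included the 2 strongest, at 126843615 to 126843665 (p of 2.58e-128, 2.69 kb from the end, rank 433) and at 126844548 to 126844599 (p of 1.18e-50, 1.75 kb from the end). The strongest of the 28 inner peaks, at 126806064 to 126806115, had a p of 4.42e-12, 6 of the 28 were under 0.001, and their median was 0.0314. These inner peaks were spread in groups of 10, 5 and 13 when split at gaps of more than 20 kb, at 11.05 to 52.4, 84.9 to 102.1 and 151.6 to 226.3 kb from the 5′ edge. The gamma subunit gene Camk2g (gene 12325), at chr14:20734873-20794157, had no peak in either list, although its span is close in length to that of Camk2a.

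**Figure D2:**
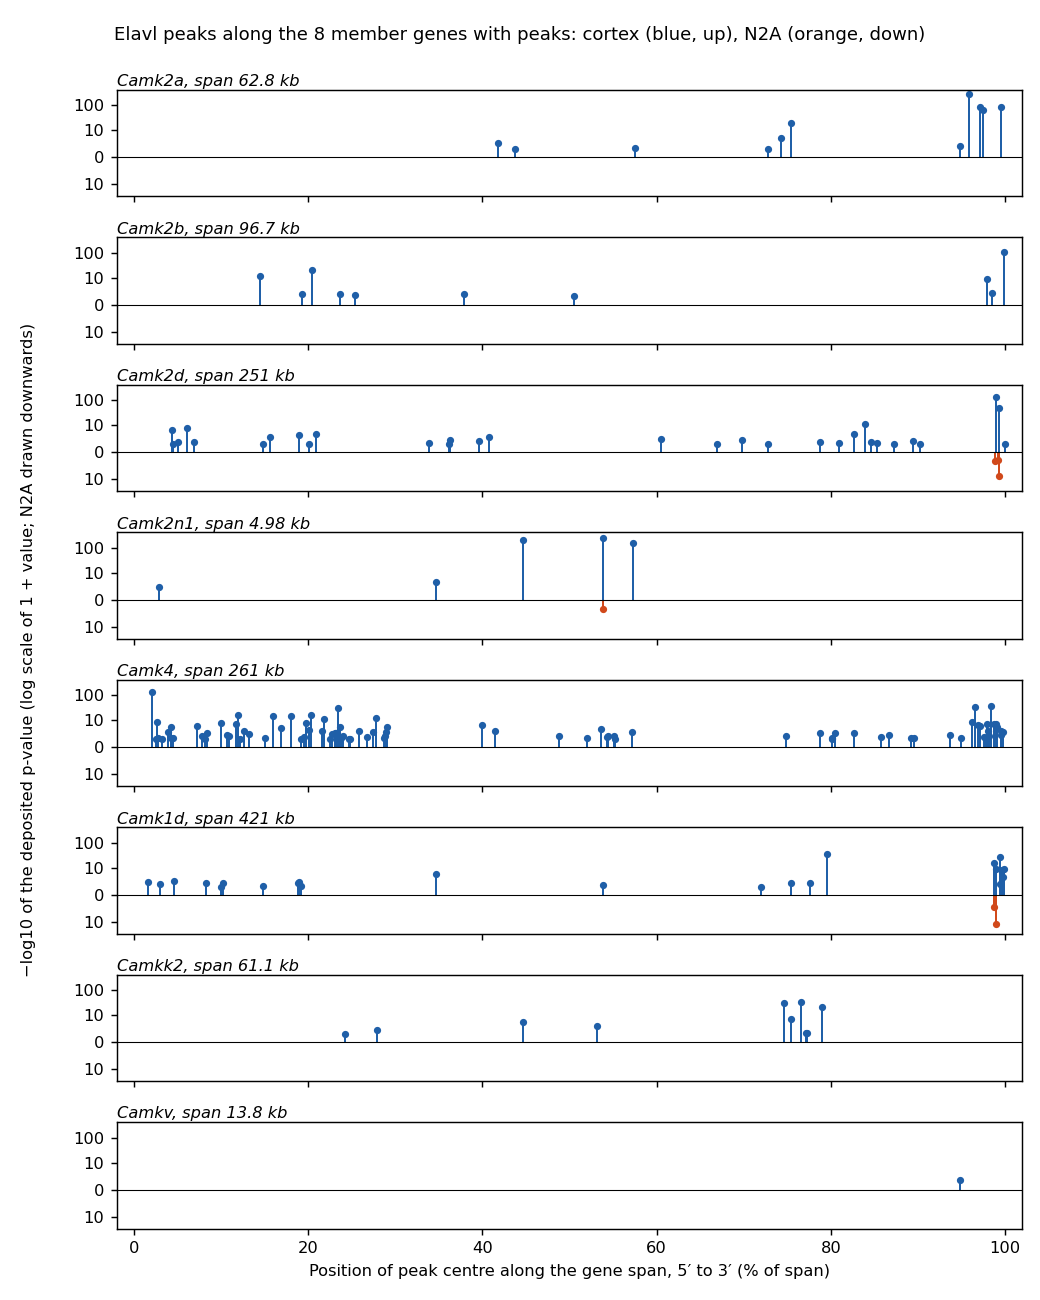
Position of every peak along the 8 genes that had any, from the 5′ edge of the span to the 3′ edge in % of span (horizontal), with the −log10 of its deposited p-value on a compressed scale (vertical), cortex upwards in blue and N2A downwards in orange. The tallest cortex lines of Camk2a, Camk2b and Camk2d stand at the right edge, that of Camk4 stands at the left edge, those of Camkk2 stop short of the right edge, and the N2A lines of Camk2d and Camk1d lie at the right edge.

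Camk2n1 (gene 66259) encodes a small protein that binds CaM kinase II and blocks its activity, and spans chr4:138455148-138460126, with its peaks on the plus strand. In this short gene 3 of 5 cortex peaks were among the 316 strongest of the list. They lay side by side at 138457345 to 138457396 (p of 1.23e-197), 138457806 to 138457857 (p of 1.39e-235, rank 147) and 138457975 to 138458026 (p of 6.54e-158), within 2.13 to 2.76 kb of the gene end. The other 2 peaks of Camk2n1 had p-values of 0.000201 and 0.00842.

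Camk4 (gene 12326), a kinase that enters the nucleus and phosphorylates transcription factors such as CREB, spans chr18:32934941-33195767, with its peaks on the plus strand. It held 90 of the 181 cortex peaks (49.7%), of which 8 were in the last 5 kb and 82 deeper in the gene. Its strongest peak lay at the other side, at 32940340 to 32940391, 5.42 kb from the 5′ edge of the span and 255.4 kb from the gene end (p of 5.55e-136, rank 393). The next were 33191646 to 33191697, 4.10 kb from the end (p of 5.64e-37), 33186649 to 33186700, 9.09 kb from the end (p of 1.78e-36), and 32995909 to 32995959, 61.0 kb from the 5′ edge (p of 1.17e-31).

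The Camk4 peaks formed 3 groups when split at gaps of more than 20 kb. The first group held 52 peaks between 5.42 and 75.6 kb from the 5′ edge, 21 of them with a p under 0.001. The second group held 10 peaks between 104.2 and 149.2 kb, 3 of them under 0.001. The last group held 28 between 195.2 and 260.3 kb, 11 of them under 0.001, and 16 of the 28 lay in the last 10 kb. No peak was found over the 46.0 kb that separated the second group from the last. Peaks of Camk4 were thus frequent in the first 75.6 kb and in the last 10 kb and sparse between, with a median spacing of 0.942 kb.

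Camk1d (gene 227541), a kinase of the Camk1 group, spans chr2:5293457-5714860 on the minus strand and is the longest of these genes. Its 23 cortex peaks included 6 in the last 5 kb, 5 of them with a p under 0.001, and 17 deeper peaks, 3 of them under 0.001. The strongest was an inner one, at 5379298 to 5379349, 85.9 kb from the end (p of 2.76e-36), followed by 5295823 to 5295873, 2.39 kb from the end (p of 7.74e-27). RefSeq gives promoters of Camk1d at 2 starts 38.7 kb apart. Between them lay 4 peaks, the strongest with a p of 0.00504, and the other 19 lay downstream of both starts. A single Camk1d peak, at 5487682 to 5487733 (p of 0.0495), also lay in the span of the noncoding gene Gm36853. Camk1 (gene 52163), a short gene of 9.80 kb at chr6:113334124-113343922, had no peak, and 29.8% of the coding genes of its length had a cortex peak.

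**Figure D3:**
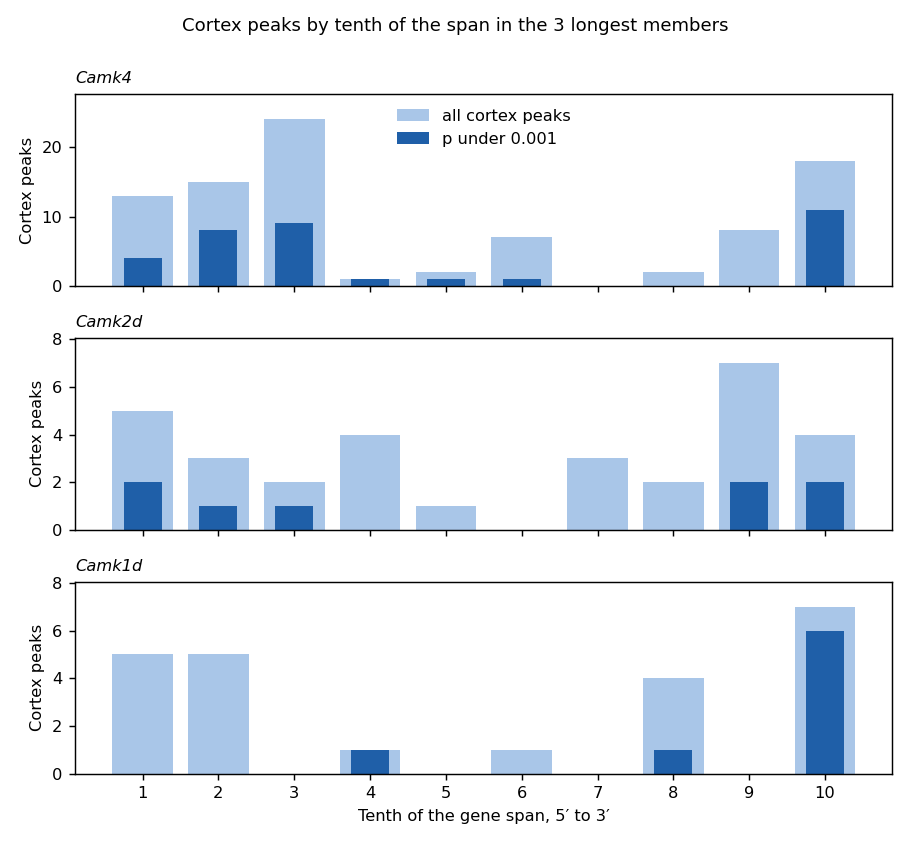
Number of cortex peaks (vertical) in each of 10 equal bins of the gene span from 5′ to 3′ (horizontal) for Camk4, Camk2d and Camk1d, with all peaks in light blue and those with a deposited p under 0.001 in dark blue. Camk4 has 52 of 90 peaks in the first 3 bins and 18 in the last, Camk2d is spread over most bins, and Camk1d has 7 of 23 in the last bin, 6 of them under 0.001.

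Camkk2 (gene 207565), the kinase that activates Camk1, Camk4 and AMP-activated kinase, spans chr5:122718380-122779522 on the minus strand. It had 10 cortex peaks and 0 within 5 kb of the end of its span. Instead 6 peaks, 4 of them with a p under 0.001, lay together in 2.69 kb, between 12.8 and 15.5 kb from the span end. They included the 3 strongest of Camkk2, at 122732680 to 122732730 (p of 3.01e-36), 122733840 to 122733890 (p of 6.64e-32) and 122731204 to 122731254 (p of 8.70e-22). The span takes in every RefSeq model, of which 10 of 12 for Camkk2 are predicted, and its last 11.4 kb overlap P2rx4, a gene annotated on the plus strand that had 0 peaks. Exons were not analysed here, so which models end beside this group was not tested. The ends of the other spans carry the same limit. Predicted models outnumbered curated ones also in Camk2b (21 to 3), Camk2d (31 to 9), Camk2g (33 to 4) and Camk4 (5 to 1). The same was true of Camk1d (5 to 4) and Camkv (2 to 1), but not of Camk2a, Camk2n1 or Camk1.

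Camkv (gene 235604) encodes a calmodulin-binding protein related to the kinases that lacks kinase activity. In its span, chr9:107935851-107949691, it had 1 cortex peak, at 107948959 to 107949010 and on the plus strand, 0.706 kb from the gene end, with a p of 0.0514. This peak was weaker than most of the list, at rank 75873, and was lost when peaks were limited to a p under 0.05.

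Across the genes, 31 of 181 cortex peaks lay within 5 kb of the gene end (17.1%, Wilson 95% interval 12.3 to 23.3). Over the cortex peaks of all coding genes the share was 19.9%, so the members as a set were near the background. Without Camk4, which held 49.7% of the peaks, the share was 25.3%. The window holds the whole of Camk2n1, and without that gene the share was 14.8%. These intervals cover counting error only, peaks of 1 gene are not replicates, and PCR reads are not independent molecules.

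A low deposited p was more frequent among the peaks near the end than among the deeper ones. A deposited p under 0.001 was found in 22 of 31 cortex peaks in the last 5 kb (71.0%, interval 53.4 to 83.9) and in 49 of 150 deeper ones (32.7%, interval 25.7 to 40.5). Over all coding genes the same shares were 53.7% and 29.0%, with 33.9% in both together, so the same order was found over all genes. The strongest peak lay in the last 5 kb in 5 of the 8 members (Camk2a, Camk2b, Camk2d, Camk2n1 and Camkv), against 59.8% of coding genes with a cortex peak. In Camk4, Camk1d and Camkk2 it lay deeper, as measured from the end of the whole span. For Camkk2, which models end beside its strongest peaks was not tested. For Camk2n1 the outcome was fixed, since the window holds its whole span, and Camkv had only 1 peak. Camk2n1 also gave 5 of the 31 cortex peaks in the last 5 kb and 4 of the 22 under 0.001.

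The cortex and N2A lists were then compared for the sites they shared. The 6 N2A peaks lay in Camk2d, Camk1d and Camk2n1, 5 of them in the last 5 kb, against 78.9% of all N2A peaks in coding genes, and the sixth was 5.10 kb from the end of Camk1d. Without Camk2n1, whose whole span lies in that window, 4 of 5 lay there. At least 1 nt was shared with a cortex peak by 3 of the 6, against 42.3% of all N2A peaks in coding genes. The shares are again close to the background of the N2A list.

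The 3 shared sites were nearly identical in place. In Camk2d the strongest N2A peak, at 126844548 to 126844598 (p of 3.48e-08), had the same start as the second strongest cortex peak of the gene. In Camk1d the N2A peak at 5298536 to 5298587 (p of 0.0129) had the same start as a cortex peak of low p, at 5298536 to 5298586 (p of 1.96e-16). In Camk2n1 the only N2A peak, at 138457804 to 138457854 (p of 0.0542), started 2 nt from the strongest cortex peak of the gene. All 3 overlapped by 48 to 50 nt, and all 3 cortex partners were among the 3 strongest peaks of their gene.

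The other 3 N2A peaks lay close to cortex peaks without touching them. The strongest N2A peak of Camk1d, at 5297835 to 5297885, had a p of 5.89e-13 and was separated by 75 nt from the cortex peak at 5297960 to 5298010 (p of 1.46e-09). In Camk2d the N2A peaks at 126843499 to 126843549 (p of 0.0708) and 126844346 to 126844397 (p of 0.0961) were 66 and 151 nt from the nearest cortex peak. A p under 0.001 was found in 2 of the 6 N2A peaks, the strongest of Camk1d and of Camk2d, against 38.5% of all N2A peaks in coding genes. The strongest N2A peak of each of the 3 genes lay in the last 5 kb, against 81.7% of coding genes with an N2A peak. For Camk2n1 this was fixed by its span of 4.98 kb.

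**Figure D4:**
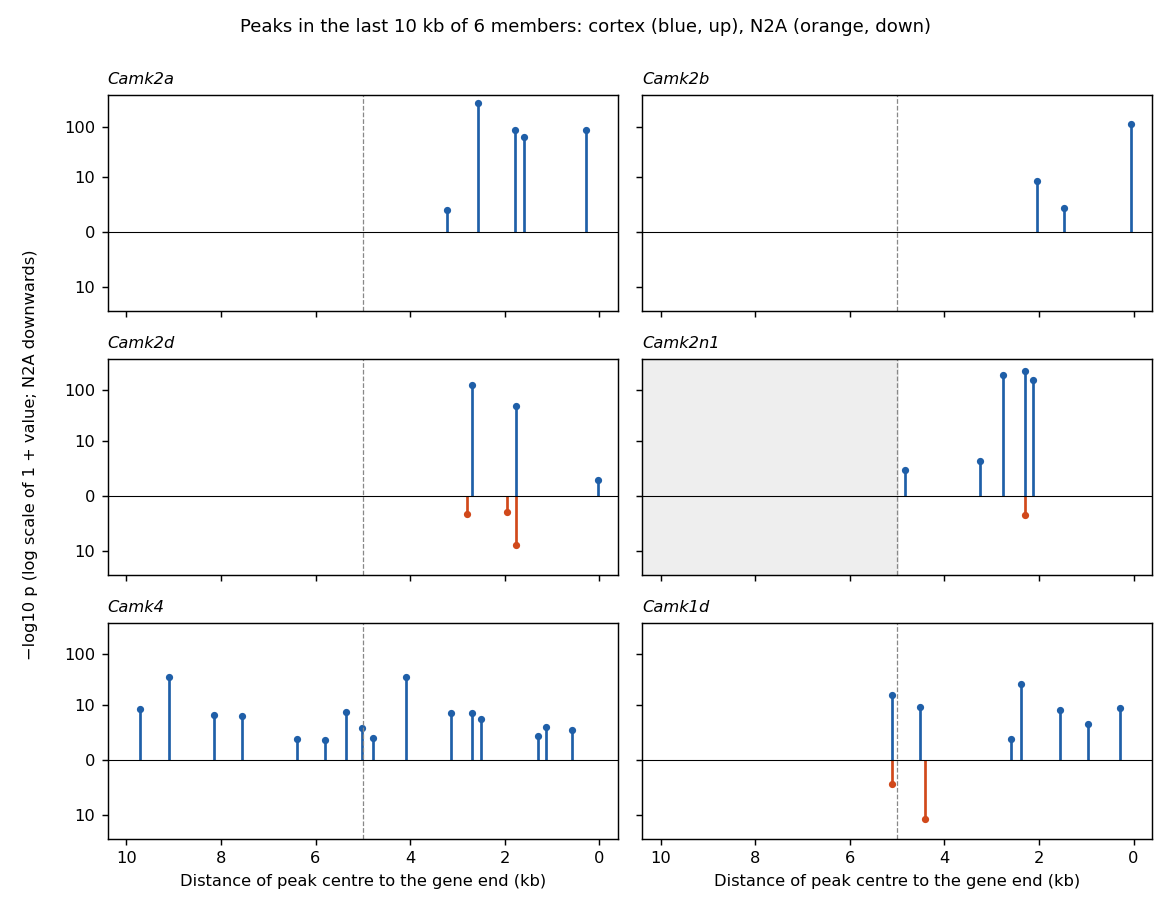
Peaks in the last 10 kb of 6 members, with the distance of the peak centre to the gene end in kb (horizontal, gene end at the right) and the −log10 of the deposited p-value on a compressed scale (vertical), cortex upwards in blue and N2A downwards in orange. The dashed line marks 5 kb and grey lies outside the short Camk2n1 span. The N2A lines of Camk2d at 1.75 kb, of Camk2n1 at 2.30 kb and of Camk1d at 5.10 kb from the end stand under cortex lines.

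The cortex list held 13.3 times as many peaks as the N2A list (interval 13.0 to 13.7). For the members the ratio was 30.2 (181 to 6, exact interval 13.6 to 83.3), and within the last 5 kb it was 6.20 (31 to 5, interval 2.39 to 20.4), where all coding genes had 3.37. The lower limit for all peaks of the members was close to the 13.3 of the whole lists. Camk4 alone gave 90 of the 181 cortex peaks, and without it the counts were 91 to 6. These intervals treat peaks of 1 gene as independent, which they are not, so they do not test the members against the lists. The interval for the last 5 kb included the 3.37 of all coding genes. Camk2a, Camk2b, Camk4, Camkk2 and Camkv had cortex peaks and 0 in N2A. Whether N2A cells transcribe these 5 genes was not measured.

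Of 64 other genes of calmodulin signalling, 53 had a cortex peak (82.8%) and 23 an N2A peak (35.9%), against 40.8% and 14.4% of all coding genes. These shares make no allowance for span. A cortex peak was found in 29.8% of coding genes near the 9.80 kb of Camk1 and in 86.7% near the 421 kb of Camk1d. All 7 genes of calmodulin and its buffers had cortex peaks and 5 had N2A peaks. Calm2 and Calm3 encode calmodulin, and each had peaks in both lists, with 6 and 3 for Calm2 and 3 and 2 for Calm3 in cortex and N2A. The strongest cortex peak of Calm2 had a p of 4.89e-120 and lay 0.175 kb from the gene end, and that of Calm3 had a p of 4.55e-222 and lay 0.0925 kb from it. Marcks, which binds calmodulin and phosphoinositides, had 4 cortex and 5 N2A peaks, the only gene here with more in N2A than in cortex among those that had both. Gap43, a calmodulin-binding protein of growing axons, had 9 and 1.

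Calcineurin, the phosphatase activated by calmodulin, was represented by 6 of 7 genes in cortex and 4 in N2A. Its catalytic subunit genes Ppp3ca and Ppp3cb had 115 and 28 cortex peaks and 1 N2A peak each, its regulatory subunit gene Ppp3r1 had 13 and 6, and the inhibitor gene Rcan3 had 1 and 1. The strongest Ppp3ca peak in cortex (p of 2.97e-316) and its N2A peak (p of 4.15e-06) lay at the same distance of 2.48 kb from the gene end. Among 16 genes of other CaM kinases and their inhibitors 10 had cortex peaks and 4 had N2A peaks, namely Dapk1 (11 and 1), the elongation factor kinase Eef2k (8 and 1), Dclk1 (44 and 1) and Cask (31 and 1). Camk1g, another kinase of the Camk1 group, and Camkk1, the paralog of Camkk2, had 0 in both, as did Dapk2, Mylk3, Phkg1 and Dclk3. The list of phosphatases of CaM kinases, which includes the phosphatase inhibitor gene Ppp1r1b, had 2 of 4 genes in cortex and 0 in N2A. Ppp1ca and Ppp1r1b had no peak.

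All 12 partner and substrate genes had cortex peaks and 2 had N2A peaks, the scaffold Dlg4 (13 and 2) and the actin crosslinker Actn4 (12 and 2). Both N2A peaks of Actn4 also lay in the span of another coding gene. Within this group the greatest cortex numbers were those of Lrrc7, encoding densin, with 126, the NMDA receptor subunits Grin2a with 92 and Grin2b with 90, and Kalrn, an exchange factor of dendritic spines, with 61, all at 0 in N2A. The 12 downstream genes, of transcription factors, coactivators and histone deacetylases, all had cortex peaks. Of these, 6 had N2A peaks, namely Creb1 (25 and 1), Crebbp (51 and 2), Ep300 (29 and 1), Mef2a (34 and 4), Mef2d (8 and 1) and the histone deacetylase Hdac4 (20 and 1). In the AMP kinase arm of Camkk2 there were 4 of 6 genes in cortex and 2 in N2A, with 9 and 3 peaks in the catalytic subunit gene Prkaa1 and a single N2A peak in Prkab1. Rcan1 and Prkag1 had no peak in either list.

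**Figure D5:**
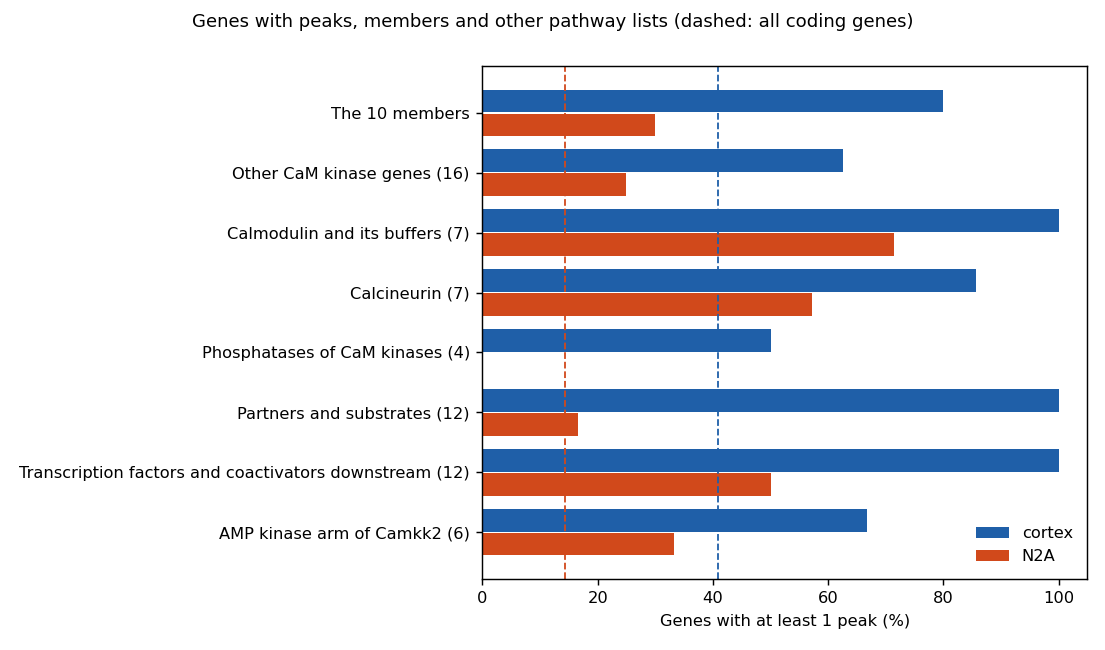
Share of genes with at least 1 peak in % (horizontal) for the 10 members and for the 7 other pathway lists, with the number of genes in brackets, cortex in blue and N2A in orange, and dashed lines at 40.8% and 14.4% for all coding genes. Calmodulin and its buffers, the partners and the list labelled transcription factors and coactivators, which includes histone deacetylases, reach 100% in cortex. Calmodulin and its buffers have the longest N2A bar.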

How the data were processed

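The 10 genes and all gene lists were chosen with earlier results of these data known. The deposited peak lists give position, strand and a p-value per peak, made by the authors' peak calling, per the file headers. The sources used here name no peak caller or filter and do not say whether cortex reads were merged. The submitters' processing notes list Novoalign (version not given) and hg19, which is a human build. Chromosome names are those of mouse, and 99.3% of cortex and 99.6% of N2A peaks in a single coding gene of known strand lay on that gene's strand in RefSeq GRCm38.p6, so coordinates were read as GRCm38. Whether they count from 0 or 1 is not stated.

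Peaks were joined to gene spans by an overlap of at least 1 nt, with python 3.11.15, pandas 2.3.3 and scipy 1.17.1, tested on simulated data with known answers. All deposited peaks were used. A gene's strand was that of most of its peaks in both lists, and equalled the annotated strand in the 5 members with peaks where RefSeq promoters give one. Distances run from the peak centre to the edge of the span, which takes in every RefSeq model of the gene, predicted ones included. Exons, untranslated regions and sequences under peaks were not analysed here. Shares have Wilson 95% intervals and ratios exact Clopper-Pearson ones. Depth per sample is unknown. Each of the 7 lists of other pathway genes (64 genes) and each marker list is described by its counts. The alternatives tried are named with their effect in the closing section, and the planned U-rich motif count was not run. All 10 genes were named, with the strongest peak of each list and every N2A peak, and of the other pathway genes those with peaks in both lists, the 5 with the most cortex peaks, and by name those with none. One pathway gene and one marker are not reported here by name.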

Additional observations from a re-analysis of the deposited data

How the results depend on the processing

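Results were recomputed with peaks of p under 0.05 or 0.001, with peaks in 1 coding gene only, with 50% of the peak in the span, with either strand, with spans extended by 5 kb, with windows of 2 and 10 kb and with stricter or looser overlap; extension on both sides and leaving out Camk4 or Camk2n1 were chosen after seeing the data. Of 59 values, 47 stayed within 1.5 times the count or within the interval of the share. With a p under 0.001 there were 71 cortex and 2 N2A peaks in the members, 1 N2A peak that overlapped a cortex peak, 11 other pathway genes with an N2A peak, and shares near the gene end of 31.0% in cortex and 100% in N2A (2 of 2). With a p under 0.05 there were 3 N2A peaks. A window of 2 kb gave 7.73% in cortex and 33.3% in N2A, and one of 10 kb gave 100% in N2A. Without Camk4 there were 91 cortex peaks and a share of 25.3%. The numbers of members with peaks, 8 in cortex and 3 in N2A, fell at most to 7 and 2. Fewer peaks pass a lower p, and a narrower or wider window takes in fewer or more of them. The cortex share rose at a p under 0.001 because 22 of 31 peaks near the end passed that limit, against 49 of 150 deeper ones. No paired analysis was possible because each group has 1 pooled list with no value per sample and the groups share only replicate number 1, and for the same reason no sample could be left out. The share of peaks with a U-rich motif was planned and not run, since no genome was used here.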

Other observations

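Several peaks lay just outside the spans. A strong cortex peak at chr4:138454535-138454586 on the plus strand (p of 6.58e-82, rank 887 of the list) was centred 0.588 kb before the annotated start of Camk2n1, outside every annotated gene span, and there was no N2A peak there. Past the end of Camkv 3 cortex peaks lay on its strand at 2.80, 3.93 and 4.38 kb, with p-values of 0.0704, 0.0413 and 0.00107, and all 3 were in the span of Traip. Past the end of Camk2b a cortex peak (p of 0.0168) and an N2A peak (p of 1.58e-08) lay on the opposite strand, both in the span of Ykt6. No other peak of either list was found within 5 kb of the spans of these 10 genes.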
